A study of Drosophila melanogaster with 2 samples.

Results

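Introns far from any promoter held 1210 of the 4867 sites in the reproducible peak list for GFP-tagged CG33017. These 1210 sites are 24.9% of the whole list (95% interval 23.7 to 26.1%) and 28.5% of its 4244 autosomal sites (27.2 to 29.9%). A site was counted when the summit of its peak lay off the X chromosome, more than 500 bp from every annotated transcription start site (TSS), inside a gene body and in no annotated exon. Each was assigned to the gene that holds it, called its host. The rule used position alone and no signal value, apart from the threshold that made the peak list. The other autosomal sites were 2645 within 500 bp of a TSS, 264 distal intergenic and 125 distal exonic, and X held 254 distal intronic sites.

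The chromatin came from whole adult male Drosophila melanogaster of unknown age, from a line carrying a transgene for CG33017 with green fluorescent protein (GFP) at its C-terminus. Precipitation used an antibody to GFP, and 2 biological replicates of this single group were profiled by ChIP-seq, so there was no comparison between conditions. Both replicates share 1 control alignment, and chromatin of an untagged line was not analysed here. A site therefore means a place where the anti-GFP precipitate was enriched over that control, summed over all tissues of the fly. How much of the signal depends on the tag was not tested. Whether the tagged copy is made in the cells and at the level of the native protein is not given in the sources used here. Signal below means the value that the authors gave each peak. The reproducible list, called the IDR list after the irreproducible discovery rate that limits it, draws on both replicates. Replicate counts, shares and densities come from the 4867 strongest peaks of each replicate's own list. Replicate signals and ranks of single sites come from its full list of 30000 peaks. Intervals are exact Clopper-Pearson intervals that cover the counting of peaks only. Read depth is unknown.

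Introns of Drosophila genes hold many enhancers, which act on promoters at a distance, and long first introns often also hold alternative promoters. Factors that read such elements include GATA factors, which act in the gut, the fat body and blood cells, forkhead factors such as the insulin-responsive foxo, and GAGA factor, which opens chromatin at GA repeats. Genes of hormone response, the circadian clock and signalling are known for long introns with several such elements.

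The strongest distal intronic site and sites with the consensus matches described below read as follows, each as 101 bases centred on the summit. They come from the plus strand of the Drosophila Release 6 (dm6) reference, and capitals mark matches on either strand to the GATA factor consensus TGATAAG, the forkhead consensus TGTTTAC or the GA repeat GAGAGAG. The CG11050 site (chr2L:6612660-6612760) is shown because its signal was the highest, and these bases hold none of the 3 motifs. The sites in ex (chr2L:435597-435697) and Nuak (chr3R:10268562-10268662) are among the strongest with a GATA match, and Nuak holds 2, on opposite strands. The sites in Lk6 (chr3R:11761007-11761107) and Trl (chr3L:14759458-14759558) are the strongest with a forkhead match, and that in tai (chr2L:9205247-9205347) holds a GA repeat.
CG11050: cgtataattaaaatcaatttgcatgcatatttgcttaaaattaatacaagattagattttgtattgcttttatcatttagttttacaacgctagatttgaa
ex: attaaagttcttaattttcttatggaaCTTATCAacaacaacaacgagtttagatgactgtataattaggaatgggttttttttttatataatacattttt
Nuak: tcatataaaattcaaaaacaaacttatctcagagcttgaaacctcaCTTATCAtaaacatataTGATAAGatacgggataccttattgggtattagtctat
Lk6: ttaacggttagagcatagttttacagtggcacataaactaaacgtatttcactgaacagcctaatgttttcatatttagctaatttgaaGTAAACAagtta
Trl: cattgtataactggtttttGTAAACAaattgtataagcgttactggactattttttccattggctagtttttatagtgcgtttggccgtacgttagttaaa
tai: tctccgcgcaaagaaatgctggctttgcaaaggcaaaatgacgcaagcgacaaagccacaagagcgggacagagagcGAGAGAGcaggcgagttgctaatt
The stretches from CG11050, ex, Nuak, Lk6 and Trl are rich in A and T, whereas that from tai is not.

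The 20 strongest distal intronic sites were high in both replicates. None ranked below 149 of the 30000 peaks of replicate 1 or below 151 of the 30000 of replicate 2. The site in CG11050 had a signal of 3404, with 1629 in replicate 1 and 1770 in replicate 2. The site in ush, a zinc finger cofactor of GATA factors, had 2766, with 1357 and 1381 in replicates 1 and 2. It lay in a first intron of 49060 bp, and its nearest TSS, at 1385 bp, belongs to the neighbouring gene cbt. The site in Lk6, which encodes a kinase of the translation initiation factor eIF4E, had 2128, with 1056 and 1077. The site in Trl, the GAGA factor gene, had 2032, with 1019 and 1022. At these 4 genes the replicates lay close together. In chromatin of whole flies, fewer cells with a site and less occupancy per cell cannot be told apart.

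Below those 4, the strongest sites lay in CG12769 (signal 1747), CG32486 (1568) and HmgZ (1538), which encodes a chromosomal HMG box protein. Chromatin regulators among the hosts were the histone demethylase gene Kdm2 (1466), upSET (1244) and simj (1168), which encodes a subunit of the NuRD remodelling complex. Kdm2 had 732.8 in replicate 1 and 723.8 in replicate 2, and simj had 608.1 and 562.0. Transcription and signalling hosts were the cGMP-dependent kinase gene for (1372), the coregulator gene tara (1298), the repressor gene cic of EGFR signalling (1082) and spen (1030), a large RNA-binding corepressor. The other hosts were CG9663 (1198), the nesprin gene Msp300 (1021), aru (991.5), CG4496 (986.4), the potassium channel gene KCNQ (960.6) and smash (938.2). Of the 20, 14 lay in the first intron of the host, beside 58.8% of all 1210 sites. Of their hosts 16 also had an IDR summit within 500 bp of a TSS of their own, beside 63.3% of all 714 hosts.

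Over all 1210 sites the signal ran between 105.3 and 3404, with a median of 159.8 and quartiles of 126.4 and 235.6. Distal intronic sites were thus about as strong as distal intergenic ones (median 160.4), and promoter-proximal sites had a median of 170.0. Their share of autosomal sites was 24.4% at ranks 1 to 973 of the list and lay between 28.4 and 30.8% in the 4 equal bins of rank after that. Among weaker peaks of the pooled list, outside the IDR list, the distal intronic share was 36.0% at ranks 4868 to 10000, 44.0% in the next 10000 ranks and 43.3% after those. Of all autosomal bases 38.6% meet the rule, so distal introns were under-represented in the IDR list and slightly over-represented among the weakest peaks.

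Replicates gave similar sets. The top lists held 1273 distal intronic sites in replicate 1 and 1213 in replicate 2, a mean of 1243 ± 42.4 (SD, n = 2), or 29.3% ± 1.31 of autosomal peaks. Of the 1210 sites, 1059 (87.5%) overlapped a peak of the top list of replicate 1, 1023 (84.5%) one of replicate 2, and 891 (73.6%) both. Since that list draws on both replicates, the overlap is fixed in part by its making. The Spearman rank correlation between the replicates' signals was 0.637 across the 1207 sites with a peak in each full list. This describes sites that were chosen from both replicates and share the control, and it is not a test. Strong sites repeated more closely than weak ones. The median absolute log2 ratio between replicates was 0.23 over the 242 sites of highest signal and 0.40 over the weakest 240 with a peak in both, as the plot of both replicates' signals shows.

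**Figure D1:**
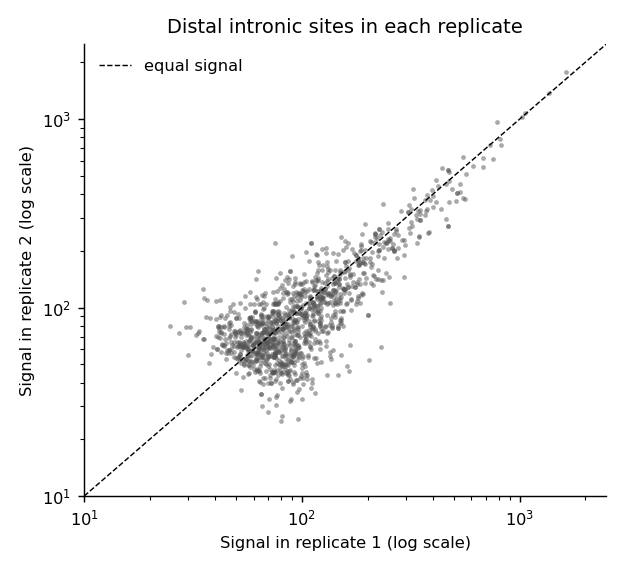
Signal of the overlapping peak in replicate 1 (horizontal, log scale) and replicate 2 (vertical, log scale) for the 1207 distal intronic sites, 1 point per site, with the line of equal signal dashed. The highest point is the CG11050 site, at 1629 and 1770, and the scatter about the line is widest at low signal.

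The largest rank differences between replicates were at 3 weak sites that each lacked a peak in 1 replicate. A missing peak was placed after the last rank, so that convention sets their differences. A site in CG10543 (2R, 20997909 to 20998175, signal 116.6) ranked 1104 in replicate 2 and had no peak in replicate 1. A site in CG46467 (3R, 9917347 to 9917750, signal 105.4) ranked 2225 in replicate 1 and had none in replicate 2. A site in whd (2R, 10477486 to 10477593, signal 140.4), a carnitine palmitoyltransferase gene, ranked 4936 in replicate 2 and had none in replicate 1. At the boundary of the rule, the nearest sites inside it lay 501 bp (lola, signal 220.5), 507 bp (Fhos, 162.6) and 509 bp (mtd, 167.0) from a TSS. The nearest outside lay at 500 bp (Pino, 230.9), 498 bp (Gnpat, 106.8) and 497 bp (ham, 109.5). Intronic summits numbered 74 in the 100 bp beyond the limit and 68 in the 100 bp short of it.

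A few of the peaks stood in pairs. In 48 of the 1210 (3.97%) the interval overlapped a stronger IDR peak, with summits 199 to 289 bp apart (median 206.5 bp) and a median signal of 130.3 for the weaker. Of these, 29 lay 190 to 210 bp from the stronger summit. In Eip75B, Pdp1, vri and PRAS40 such pairs overlapped the same peak in each replicate. In shn this held for 1 pair, whereas the peaks of another overlapped different peaks of replicate 2, with signals of 54.2 and 79.6. Leaving out the weaker peak of each pair gave 1162 sites in 711 hosts. Among genes with 4 or more sites this took 2 sites off the count of Eip75B, shn, crp, Pdp1 and CG10543. It took 1 off that of SNF4Agamma, vri, PRAS40, EcR, Eip74EF, simj, Samuel and Atg1, and 55 genes in place of 58 then held 4 or more.

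Distal intronic sites were dense near promoters and thinned out with distance. Their median distance from the nearest TSS was 1886.5 bp (quartiles 966 and 4078 bp), and the farthest, in Snoo, lay 35910 bp away. Per megabase (Mb) of intron that meets the rule, called eligible, there were 89.4 sites at 0.5 to 1 kb, 56.7 at 1 to 2 kb and 32.1 at 2 to 5 kb. Beyond that there were 16.7 at 5 to 10 kb, 10.4 at 10 to 20 kb and 2.19 farther out. Eligible sequence came to 42.6 Mb, and its mean density was 28.4 sites per Mb. Replicates 1 and 2 gave 98.4 and 89.2 per Mb at 0.5 to 1 kb, and 2.33 and 2.47 beyond 20 kb, so the decline was much larger than the difference between replicates. The plot of density by distance shows the 3 lists running close together.

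First introns held more sites than their length would give. Of the 1210 sites 711 (58.8%, 95% interval 55.9 to 61.6%) lay in the first intron of the host, which makes up 32.1% of eligible bases, and the replicate lists gave 59.4% ± 1.16 (SD, n = 2). The second intron held 305 sites and later introns 194. Density was 52 per Mb in first introns, 28.1 in second introns and 10.7 in later ones. First introns lie closer to promoters, so the same was read within distance ranges. At 0.5 to 1 kb from a TSS there were 114 sites per Mb in first introns and 59.5 in later introns, and at 2 to 5 kb there were 45.8 and 23.3. Beyond 10 kb there were 15.2 in first introns and 4.53 in later introns, and first introns were also the denser in the remaining ranges.

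**Figure D2:**
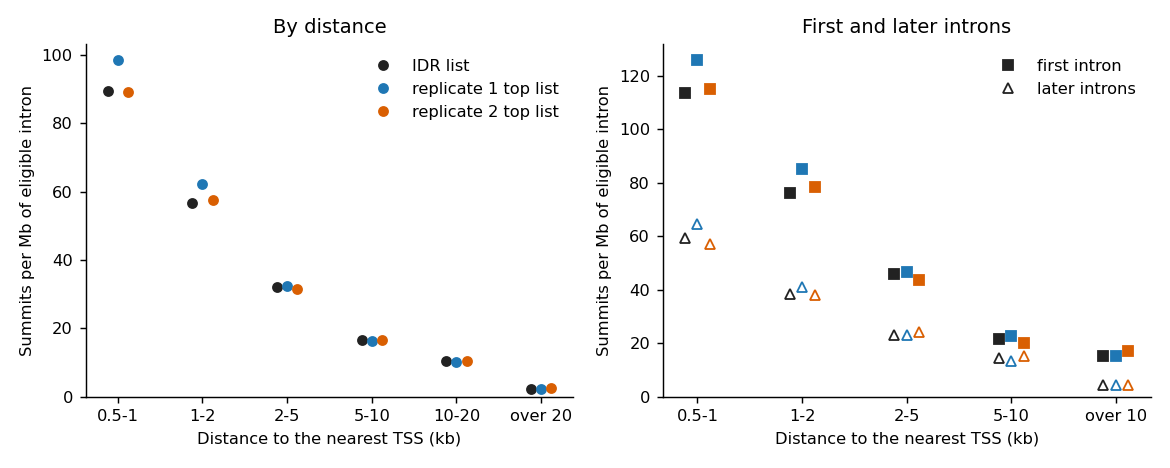
Distal intronic summits per Mb of eligible intron (vertical) by distance from the nearest TSS (horizontal, kb), for the IDR list in black and the top lists of replicates 1 and 2 in blue and orange. The left panel takes all introns, with 89.4 per Mb in the nearest range and 2.19 in the farthest, and the right panel separates first introns (squares) from later introns (triangles), with first introns higher in every range.

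Most sites had a promoter of their own host as the nearest, on either side. The nearest TSS belonged to the host at 947 of the 1210 sites (78.3%). At 513 sites (42.4%) the host also had a TSS farther downstream in the direction of transcription, so that the site lay between alternative starts of the same gene. Sites lie inside their host by rule, and neither share was worked out for all eligible bases. Neither is therefore shown to be particular to the sites. All but 9 of the sites lay in protein-coding hosts (1201), and 83 lay in more than 1 gene, where the shortest protein-coding gene was taken. Introns of middle length were the densest, with 51.9 sites per Mb in introns of 1 to 2 kb and 53.7 in those of 2 to 5 kb, against 8.23 in introns over 50 kb. Among the large arms density was highest on 2L, at 32.5 sites per eligible Mb, and lowest on 3R, at 26.7. Chromosome 4 held a single site in 0.575 Mb. The autosomes had 28.4 sites per Mb (29.9 and 28.5 in replicates 1 and 2) and X had 24.9 (27.4 and 22.9).

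The 1210 sites lay in 714 genes, which is 9.29% of the 7687 autosomal genes with eligible intron. Of these hosts 464 held 1 site, 138 held 2, 54 held 3 and 58 held 4 or more, and those 58 genes took 308 of the sites (25.5%). The share of genes that were hosts depended on the length of eligible intron. It was 1.21% of genes with up to 1 kb, 16.9% with 1 to 5 kb, 27.1% with 5 to 20 kb, 30.2% with 20 to 50 kb and 36.5% above.

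Genes with a distal intronic site often also had a site at a promoter. Of the 714 hosts 452 (63.3%, 59.7 to 66.8%) had an IDR summit within 500 bp of a TSS of their own, against 29.4% of all eligible genes and 25.9% of those without a distal intronic site. The replicate lists gave 61.7% ± 1.90 for hosts (SD, n = 2). The share was 56.5% for hosts with 1 site, 71.4% for those with 2 or 3 and 91.4% (53 of 58) for those with 4 or more. It was above that of genes without a distal intronic site in each class of eligible length. The shares were 59.0% against 27.7% at 1 to 5 kb, 68.5% against 22.5% at 5 to 20 kb and 69.7% against 16.3% over 20 kb. Up to 1 kb the hosts were at 39.0% (26.5 to 52.6%), an interval that includes the 26.7% of genes without such a site. A gene with more TSSs has more chances of a promoter site, and at equal numbers of TSSs the shares were 50.4% against 21.5% for 1 TSS, 66.7% against 35% for 2 or 3 and 84.3% against 51.4% for 4 or more.

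Regulators of the ecdysone response were among the genes with the most sites. Eip75B, an ecdysone-induced nuclear receptor gene on 3L (17950953 to 18064696), held 11 sites over 106598 bp, or 9 without the weaker of overlapping pairs. Replicates 1 and 2 gave 9 and 13. Its strongest sites had signals of 470.3 (263.6 and 199.4 in replicates 1 and 2), 61138 bp downstream of the most upstream TSS, and 458.0 (235.1 and 210.4), 1532 bp downstream of it. The other 9 had signals of 112.6 to 198.2. In this gene 2 strong sites thus stood out from a series of weak ones spread over almost the whole gene, as in the map of sites along the genes.

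EcR, the ecdysone receptor gene on 2R, held 7 sites with signals of 111.3 to 202.0, all outside the first intron. Eip74EF, an ecdysone-induced Ets factor gene, held 7 with signals of 132.9 to 189.1, of which 6 were in the first intron. tai, which encodes a coactivator of the ecdysone receptor, held 6, with the strongest at 382.0 (251.8 and 144.5 in replicates 1 and 2) and 341.8 (206.7 and 134.7). The site of tai printed above is the weaker of that pair. Eip93F, an ecdysone-induced transcription factor gene, held 4 with signals of 123.9 to 179.5, and ftz-f1, a nuclear receptor gene of the same cascade, held 4 with the strongest at 358.7. EcR, Eip74EF and Eip93F thus carried several sites of low to middle signal.

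The clock genes vri and Pdp1 held several sites each. vri, which encodes a bZIP repressor of the clock, held 8 sites in 15.1 kb of eligible intron (528 per Mb), all in the first intron, or 7 without the overlapping weaker peak. Its strongest had a signal of 502.4 (298.1 and 213.7 in replicates 1 and 2), 4433 bp downstream of the first TSS. Pdp1, which encodes the opposing bZIP activator, held 7, or 5 without overlapping weaker peaks, also all in the first intron. The strongest in Pdp1 had 731.6 (466.1 and 269.2) and the next 489.0 (225.3 and 260.3). The strongest Pdp1 site was thus much higher in replicate 1, and the next was higher in replicate 2.

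The hosts with many sites also include genes of metabolism and growth, described together here by known role and not as a tested group. SNF4Agamma, the gamma subunit gene of AMP-activated kinase, held 11 sites over 55432 bp (10 and 11 in replicates 1 and 2), the strongest at 430.7 (224.2 and 186.6). PRAS40, whose product inhibits the TORC1 kinase complex, held 8 in 13.5 kb of eligible intron (593 per Mb), all in the first intron, with signals of 116.9 to 256.8. REPTOR, a transcription factor gene that TORC1 holds in check, held 6 with signals of 110.6 to 254.6. InR, the insulin receptor gene, held 4 with the strongest at 290.2. bmm, which encodes a triglyceride lipase, held 4 in its first intron with the strongest at 352.7, and Acsl, a long-chain acyl-CoA synthetase gene, held 4 with signals of 182.8 to 367.4. Hnf4, a nuclear receptor gene of lipid metabolism, held 4, none above 132.4.

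The other hosts with 8 or more sites, and simj and Kdm2 with fewer, varied widely in signal. shn, a zinc finger gene of the BMP pathway, held 11 sites (10 and 8 in replicates 1 and 2; 9 without overlapping weaker peaks) with a highest signal of 341.9. crp, a bHLH factor gene, held 9 in 19.8 kb of eligible intron (455 per Mb), with signals of 105.5 to 354.8. tara held 8 in its first intron, of which the strongest, at 1298, and the next, at 499.5, lay 11298 and 10513 bp downstream of the first TSS. sbb, a nuclear corepressor gene, held 8 with the strongest at 483.0, and bun, a TSC22 family gene, held 8 with signals of 120.1 to 278.4 and none in the first intron. In simj 3 of 6 sites were strong, at 1168, 920.8 and 703.9. In Kdm2 5 sites fell within 3454 bp, the strongest at 1466 and the other 4 at 113.3 to 244.8. CG46467 held 8 with none above 152.1. A high number of sites thus went with a strong site in tara, simj and Kdm2 but not in CG46467 or EcR.

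**Figure D3:**
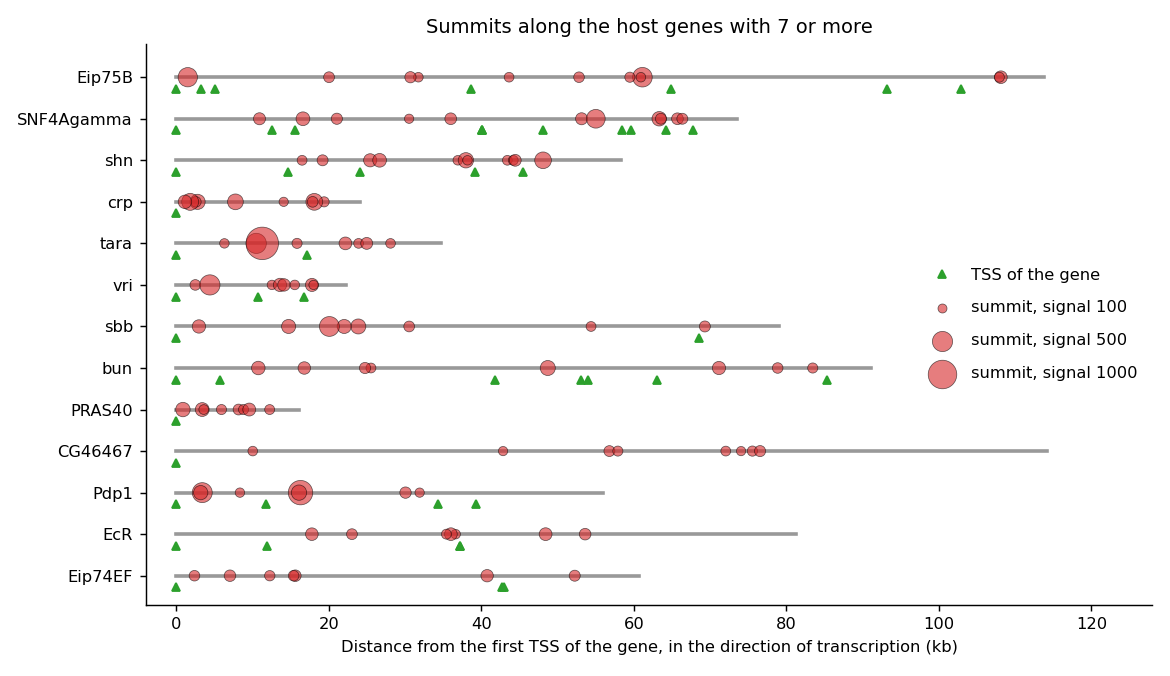
Distal intronic summits (red circles, area proportional to signal) along the 13 genes with 7 or more, in kb from the first TSS of each gene in the direction of transcription. Grey lines span each gene and green triangles mark its TSSs. Eip75B, SNF4Agamma and bun carry sites along most of their length, whereas the sites of crp, vri and PRAS40 lie within the 25 kb or less that these genes cover.

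Among hosts with 4 to 6 sites, Snoo and CG3764 held 6 each. Snoo encodes a corepressor of TGF-beta signalling, and its highest signal was 327.7. Besides Kdm2, those with 5 were the Rab regulator gene sky, the Trithorax-group gene tna, the AF4 family gene lilli, CG9328, the Ets factor gene pnt and cnc, the gene for the Nrf2 homologue. All 5 sites in cnc were weak, with signals of 105.5 to 119.9, and 5 and 2 were found in the top lists of replicates 1 and 2. The genes with 4 sites and a highest signal over 500 were mam, the Notch coactivator gene (800.3), mub (637.3), hzg (557.1), the lysosomal transporter gene spin (554.0) and the splicing regulator gene ps (532.4). Others with 4 were Stat92E (highest signal 470.8), osp (495.3), pum (384.5), the inhibitory Smad gene Dad (381.1), Tet (365.0), MESR3 (364.6), Samuel (354.3) and the JNK phosphatase gene puc (347.3). The remaining ones were CG32264, dnr1, heca, the hypoxia factor gene sima, shep, shot, Bsg, CG10543, the BMP receptor gene tkv, the autophagy kinase gene Atg1, drongo, Pino, Svil and CG6051, with highest signals of 116.5 to 307.6.

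Gene lists put these hosts beside others of the same role. In each list the hosts were counted among the members with eligible intron, beside 9.29% of all eligible genes and 28.4 sites per Mb. The median eligible length was 0.429 kb over all genes and longer in most lists, so each list is also set beside its share at equal length, the mean over its genes of the share of hosts in each gene's length class. The interval of the list lay above that share in 9 of the 24 lists and below it in 1, and included it in 14, and it is no test, since the lists were chosen with earlier results known. The 9 were the clock, ecdysone, lipid, insulator, Hippo, BMP, JAK-STAT and JNK, kinase and zinc finger lists, and the 1 was the homeobox list. These intervals come from the IDR list alone. For the Hippo list replicate 2 gave 33.3% of 12 genes, a share whose interval is 9.92 to 65.1% in the insulator list. That interval includes the 17.6% of the Hippo list at equal length, so the Hippo list was not above it in replicate 2. For the other lists no interval was worked out in the replicate lists, so how steady they are between replicates was not tested. The lists share some genes, such as Lk6, Trl, kay, foxo, Hnf4 and dco.

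Hormone and clock lists held many hosts. Of 11 ecdysone response genes 8 were hosts (72.7%, 39.0 to 94.0%), with 25 sites and 68.5 per Mb. The share was the same in both replicate lists, and at equal length it would be 30.8%. The highest signals were in tai (382.0), ImpL2 (347.7), which encodes a binding protein of insulin-like peptides, and the ABC transporter gene E23 (288.7). Of 10 circadian clock genes 6 were hosts (26.2 to 87.8%), against 19.2% at equal length, with 19 sites and 232 per Mb. The replicate lists gave 60% and 50% for the clock genes. After Pdp1 and vri the next was dco, the kinase gene also known as doubletime (281.0), and cwo, cry and Clk held 1 site each. Of 17 nuclear hormone receptor genes 4 were hosts (23.5%, 6.81 to 49.9%), close to the 22.6% at equal length. Those 4, Eip75B, ftz-f1, EcR and Hnf4, held 26 sites, so the sites were gathered in a few receptors.

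Among metabolic and stress lists, that of lipid storage and metabolism had 8 hosts of 13 (61.5%, 31.6 to 86.1%), against 13.6% at equal length, at 420 sites per Mb, and the highest signals were in SREBP (375.6), the regulator of lipid synthesis, bmm (352.7) and mdy (312.7), which makes triglycerides. The replicate lists gave 53.8% and 69.2%. Insulin and TOR signalling had 6 of 20 (11.9 to 54.3%), an interval that includes the 13.9% at equal length, at 140 per Mb, led by Lk6 (2128), SNF4Agamma (430.7) and InR (290.2). Stress and bZIP factors had 6 of 14 (42.9%, 17.7 to 71.1%), an interval that includes the 18.6% at equal length, at 137 per Mb, led by sima (279.6), REPTOR (254.6) and kay (248.4), the Fos homologue.

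Shares of hosts in signalling pathways ranged widely. JAK-STAT and JNK genes had 6 hosts of 9 (66.7%, 29.9 to 92.5%), against 21.6% at equal length, led by Stat92E (470.8), puc (347.3) and the kinase gene msn (306.9). Their replicate lists gave 66.7% and 55.6%. TGF-beta and BMP genes had 7 of 14 (23 to 77%), against 19.5% at equal length, with 25 sites and 166 per Mb, led by Dad (381.1), shn (341.9) and the receptor gene wit (304.2). Of 12 Hippo pathway genes 6 were hosts (21.1 to 78.9%), against 17.6% at equal length, led by ex (594.8), crb (347.5) and the kinase gene wts (253.1), and the replicate lists gave 41.7% and 33.3%. The intervals of the next 4 lists include their share at equal length. EGFR, Ras and MAPK genes had 8 of 22 (36.4%, 17.2 to 59.3%), against 21.8%, led by the adaptor gene drk (517.2), aop (398.6) and the inhibitor gene sty (254.3). Toll and Imd genes had 5 of 15 (11.8 to 61.6%), against 12.5%, with the highest signals in PGRP-LB (238.1), Tl (212.7) and Dif (208.9), out of 7 sites in all. Notch had 3 of 13, against 18.0%, in mam (800.3), neur (300.2) and numb (170.9). Wnt had 1 of 14 (7.14%, 0.181 to 33.9%), against 23.9%, in the coreceptor gene arr (149.9), at 3.18 sites per Mb.

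Among lists of regulators and cell machinery, kinases and phosphatases of other pathways had 14 hosts of 26 (53.8%, 33.4 to 73.4%), against 22.7% at equal length, led by Lk6 (2128), trbl (419.2) and dco (281.0). Zinc finger and chromatin regulators had 16 of 33 (48.5%, 30.8 to 66.5%), against 26.4%, led by ush (2766), jim (843.1) and fru (352.6), which specifies male courtship, though at 24.5 sites per Mb. RNA-binding regulators had 10 of 26 (38.5%, 20.2 to 59.4%), an interval that includes the 24.0% at equal length, at 13.5 per Mb, led by mub (637.3), brat (463.1) and pum (384.5). Polycomb and Trithorax genes had 5 of 24 (20.8%, 7.13 to 42.2%), an interval that includes the 12.3% at equal length, led by Trl (2032), Kdm2 (1466) and trx (660.1). Insulator and promoter-binding factors had 4 of 12 (9.92 to 65.1%), against 8.66%, of which Trl, psq (259.9) and lola (220.5) were highest.

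Of the remaining lists, that of homeobox genes had a share below that at equal length, and the intervals of the others include it. Homeobox genes had 2 hosts of 33 (6.06%, 0.743 to 20.2%), cad (285.2) and Abd-B (141.3), against 23% at equal length, at 7.14 sites per Mb. Axon guidance and adhesion genes had 4 of 30 (13.3%, 3.76 to 30.7%), against 28.6%, at 5.97 per Mb, the highest in Fas3 (287.2), Sema5c (201.1) and caps (181.3). Ion channel and synapse genes had 4 of 24 (16.7%, 4.74 to 37.4%), against 25.9%, at 9.70 per Mb, the highest in the synapsin gene Syn (421.5), Rim (126.8) and NaCP60E (118.7). Sarcomere genes had 3 of 22, against 18.3%, in Msp300 (1021), Mef2 (261.8) and Zasp52 (128.6). Septate junction and transporter genes had 3 of 17, against 19.2%, in Indy (153.6), Glut1 (145.2) and Atpalpha (129.9). None of 17 cytoplasmic ribosomal protein genes was a host (interval up to 19.5%), against 1.21% at equal length, and their median eligible length was only 0.114 kb.

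**Figure D4:**
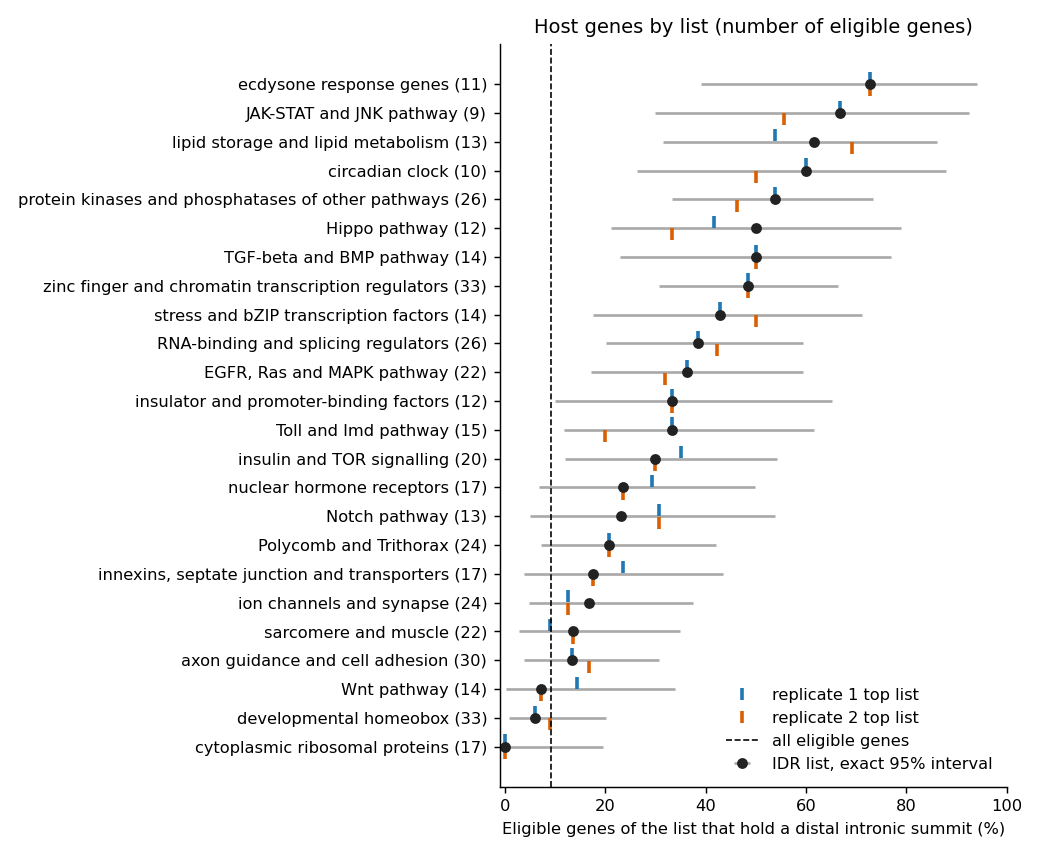
Share of the eligible genes of each list that hold a distal intronic summit (horizontal, %), with the number of eligible genes in brackets. Points and grey bars give the IDR list with its exact 95% interval, blue and orange ticks the top lists of replicates 1 and 2, and the dashed line the 9.29% of all eligible genes. Ecdysone response genes are highest at 72.7%, and Wnt pathway, homeobox and ribosomal protein genes are below the line.

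The summits lay on AT-rich DNA. GC content within 50 bp of the summit averaged 35.1% ± 9.60 (SD over 1210 sites), against 41.9% ± 7.22 in flanks of the same sites 350 to 450 bp away. The summit was below its flanks at 833 sites (68.8%). Here and below, flanks were taken at every site and not limited to eligible intron. Those of sites near a TSS or exon can therefore lie in promoters or exons. Distal intronic sites shared this with promoter-proximal sites (36.4%, against 43.6% in their flanks) and with distal intergenic ones (34.5% against 41.3%). The replicate lists gave 35.4% ± 0.221 for distal intronic sites (SD, n = 2). Over the 100 bp to each side of the summit GC was 36.8%, against 40.2% over 211962 tiles of the same length across eligible intron. Some of the strongest sites were lower still, such as Kdm2 with 16.8%, tara with 19.8% and CG11050 with 22.8%, whereas KCNQ had 45.5%.

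GATA and forkhead sequences were more frequent at the summits than beside them. TGATAAG, the sequence read by GATA factors, occurred on either strand within 100 bp of 124 summits (10.2%, 8.60 to 12.1%). It was in 4.83% of flanks 300 to 500 bp away, in 2.99% of all eligible tiles and in 3.23% when the tiles were weighted to the GC content of the sites. TGTTTAC, read by forkhead factors, occurred at 119 summits (9.83%, 8.21 to 11.7%), in 4.75% of flanks, in 4.42% of tiles and in 4.77% of weighted tiles. The replicate lists gave 9.82% ± 2.00 for GATA and 10.4% ± 0.752 for forkhead (SD, n = 2). Both were less frequent at promoter-proximal summits, with 5.41% for GATA and 6.43% for forkhead. Distal intergenic summits held them at 7.58% and 7.95%. A match is a description of the letters and not evidence that a factor binds there.

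GATA and forkhead matches were both present at 16 summits (1.32%), and either was at 227 (18.8%). GATA was at 9.84% of sites within 2 kb of a TSS and 10.7% of those farther away, and forkhead was at 9.84% and 9.82%. Neither was more frequent among strong sites: the 242 sites of highest signal held GATA at 7.02% and forkhead at 9.09%, and the 242 of lowest signal at 9.92% and 9.09%. The strongest sites with GATA were in oys (signal 738.7), MCU (649.4) and ex (594.8), and those with forkhead in Lk6 (2128), Trl (2032) and spen (1030). In the plot of matches around the summit, GATA reached 5.79% and 5.54% in the bins on either side of it, and 2.07 to 3.31% beyond 300 bp. Forkhead reached 5.45% and 5.29%, and 1.82 to 2.98% beyond 300 bp.

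GAGA repeats behaved otherwise. GAGAGAG occurred within 100 bp of 78 summits (6.45%, 5.13 to 7.98%), close to its 6.28% in flanks but above the 2.57% of tiles and 2.08% of weighted tiles. The replicate lists gave 6.89% ± 0.747 (SD, n = 2). In the bins next to the summit it was at 3.39% and 3.72%, and it was highest 100 to 200 bp away, at 5.79% and 5.95%. Its frequency was thus raised around the sites compared with eligible intron, with the maximum beside the summit. Tiles cover eligible intron only, whereas flanks can reach promoters or exons, and how much this adds to the flank share was not tested. Sites in genes with 4 or more held a GAGA repeat at 9.74% (6.67 to 13.6%), against 6.45% over all 1210. These 308 sites come from 58 genes and are part of the 1210, and the interval counts each as independent. Without overlapping weaker peaks the share over all sites was 6.11%, and that of this subset was not worked out.

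**Figure D5:**
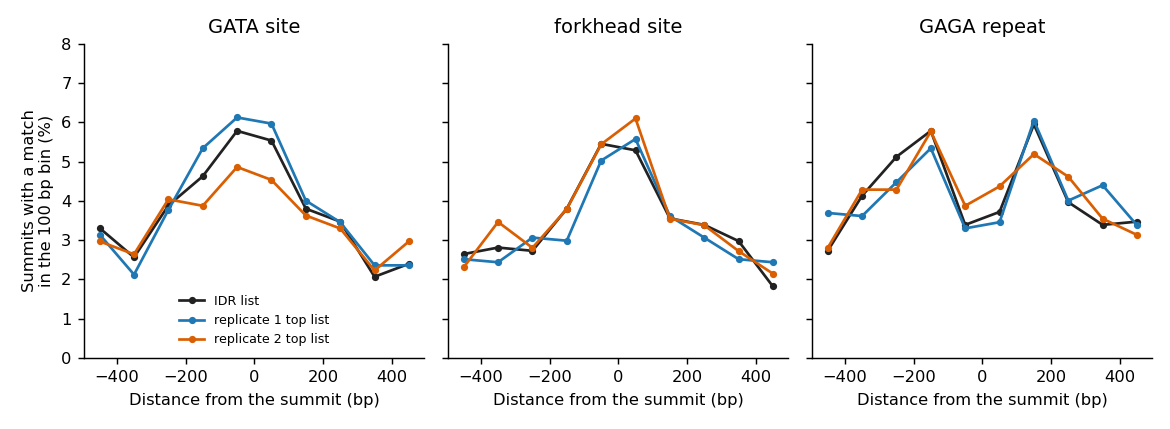
Share of distal intronic summits with a match in each 100 bp bin (vertical, %) by distance from the summit along the reference strand (horizontal, bp), for the IDR list and the top lists of both replicates. GATA and forkhead matches are most frequent in the bins next to the summit, above 5% in the IDR list, while GAGA repeats are lower there than 100 to 200 bp away.

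Of 4 core promoter sequences, 3 were rare at distal intronic summits. The DRE core TATCGATA was at 4 of 1210 (0.331%, 0.0901 to 0.844%), against 5.10% of promoter-proximal summits. The motif 1 core GGTCACAC was at 3 (0.248%, 0.0512 to 0.723%) against 4.50%, and the motif 7 core CATCNCTA at 13 (1.07%, 0.573 to 1.83%) against 5.22%. In eligible tiles these were at 0.430%, 0.274% and 1.12%, so for these 3 distal intronic summits were near the level of eligible intron. The motif 6 core GGTATTTT was at 26 summits (2.15%, 1.41 to 3.13%), against 3.18% of promoter-proximal summits, 0.95% of flanks and 1.28% of tiles. Its interval includes the 1.51% of weighted tiles, and the replicate lists gave 1.73% and 1.90%. The TEAD sequence GGAATG, read by the Hippo pathway factor Scalloped, was at 5.70% of summits, against 9.38% of flanks and 9.48% of tiles. The E-box CACGTG, read by clock and Myc-type factors, was at 2.56% (1.75 to 3.62%), against 3.22% of flanks, 2.29% of tiles and 1.84% of weighted tiles. The AP-1 sequence TGANTCA was at 6.03% (4.76 to 7.53%), as in flanks, against 4.45% of tiles and 4.66% of weighted tiles. The homeodomain core TAATTA was at 17.4%, against 13.7% of flanks but 17.6% of GC-weighted tiles.

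Among all 8-mers, those chosen on 2L and 3L for the largest excess over flanks within 50 bp of the summit held only A and T. The leading one, AATAAATA, was at 6.71% of the 581 sites on those arms, against 2.75% of flanks. On the remaining arms, which the choice did not use, it was at 6.20% of 629 sites (4.45 to 8.38%), against 3.02% of flanks, and it was at 3.24% of tiles. Promoter-proximal summits held it at 6.28%, so distal intronic sites were alike in this to the larger class. AAATATTA was at 4.13% of the remaining sites, against 1.75% of flanks and 2.14% of tiles. ATAAATAT was at 4.93% (3.37 to 6.92%), against 1.99% and 2.84%. AAAATATT was at 3.82% (2.46 to 5.62%), above its 2.07% of flanks, but the interval includes its 3.28% of tiles. TTAAAAAA was at 3.02% (1.83 to 4.68%), an interval that includes both its 1.99% of flanks and 2.77% of tiles. Its excess was therefore not shown on those arms. Tiles were not weighted to GC content for 8-mers, so how far their A and T content alone gives these shares was not tested.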

How the data were processed

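Peak lists on dm6 were deposited for each replicate, for the pooled replicates (30000 peaks each) and as an IDR list of 4867. Both replicates share 1 control alignment, per the file listing that the authors deposited. Neither aligner nor peak caller, nor the threshold behind the IDR list, is given in the sources used here. The deposited signal of a peak is the authors' own value and served for ranking and description, and the deposited −log10 q-value was not used. Depth is unknown.

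Summits were placed on Ensembl release 115 (BDGP6, transposable elements left out) and the NCBI Release 6 sequence with Python 3.11.15, numpy 2.4.6, pandas 2.3.3 and scipy 1.17.1. Introns were numbered on the canonical transcript where it holds the summit in an intron, otherwise on the longest that does. Replicate errors are the SD over the 4867 strongest peaks of each replicate. Overlap meant at least 1 bp. No test across sites was made; procedures were checked on simulated data. Members, 24 gene lists and 22 motifs were chosen with earlier results of these data known, and 3 entries of the lists were corrected after values were seen (Dad and dco respelled, ab taken out of the kinases). A further gene list is not reported here. Genes named are hosts of the 20 strongest sites, hosts with 4 or more, the 3 largest rank differences, and up to 3 hosts per list, besides sites at the distance limit and other hosts named for a role. Alternatives were other TSS distances (250 and 1000 bp), peak midpoints, protein-coding TSSs only, the higher-signal part of the list (2433 peaks), no mostly soft-masked peaks, each replicate alone, a 50 bp motif window and no overlapping weaker peaks.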

Additional observations from a re-analysis of the deposited data

How the results depend on the processing

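Of 75 values recomputed under alternatives, 57 stayed within their limit and 18 moved further. The limit was the replicate SD for a share or for GC, and a 1.5-fold change for a count. Each replicate alone was set against an SD made from those same replicates, so for shares and GC this is no independent check. The higher-signal part of the list, about as many peaks as its remainder, gave 566 sites, 419 hosts, 62.5% in first introns, a mean GC of 32.6% and 42.5% of hosts with a promoter site. A TSS distance of 250 bp gave 1416 sites in 811 hosts, a GC of 34.8% and 50.1% of hosts with a promoter site. A distance of 1000 bp gave 891 sites in 513 hosts, 54.7% in first introns and 72.5% of hosts with a promoter site. These site and host counts stayed within the wide 1.5-fold limit. The distance that defines a promoter site also changed, to 250 or 1000 bp, and with the higher-signal part promoter sites were read from that part only. The shares of hosts with a promoter site therefore rest on other definitions than the main one. No share of all eligible genes was worked out beside them. A 50 bp window gave 5.21% for GATA, 6.45% for forkhead and 2.56% for GAGA, since it is shorter. Each replicate alone gave 1213 to 1273 sites, 712 to 747 hosts, 58.6 to 60.3% in first introns, a GC of 35.3 to 35.6%, 60.4 to 63.1% of hosts with a promoter site, and 8.41 to 11.2% for GATA, 9.82 to 10.9% for forkhead and 6.36 to 7.42% for GAGA. The GATA and forkhead results and the removal of overlapping weaker peaks were chosen after seeing the data, and that removal gave 1162 sites. No paired analysis was possible because there is 1 group. The main limits are the unknown depth, the lack of an untagged control here, whole flies as the source, and the IDR list's use of both replicates.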

Other observations

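Of 1209 sites with another on the same chromosome, 227 had the nearest within 1000 bp, 381 within 2000 bp and 578 within 5000 bp, and the median was 5749 bp. Part of this comes from overlapping peaks. Without the weaker of each overlapping pair, 144 of 1161 had the nearest within 1000 bp, 308 within 2000 bp and 509 within 5000 bp, and the median was 6947 bp. Peaks that were mostly soft-masked repeats were few, at 24 of the 1210 (1.98%). The median peak width was 404 bp, as it was for promoter-proximal and distal intergenic sites, and so was the upper quartile. In both replicate lists the median was 384 bp in every class. Of the 1210 sites 758 (62.6%) had the summit in the exact middle of the peak. How far these widths are set by the peak calling was not tested, so they are not shown to be a property of the sites.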
